A study of Mus musculus with 22 samples.

Results

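Purine and pyrimidine nucleotide synthesis is described here through 32 genes that encode its enzymes. They were taken by name from a list of these genes and were all found among the 24454 gene symbols of the count table. By role they fall into 17 genes of purine synthesis and phosphorylation, 6 of pyrimidine ribonucleotide synthesis, 5 of deoxynucleotide synthesis and 4 of salvage. The RNA came from cells carrying VE-Cadherin (an endothelial surface protein) that were sorted from the aorta-gonad-mesonephros (AGM) region of wild-type C57BL/6 mouse embryos, which had been neither grown in culture nor treated and carried no engineered allele. The AGM is where endothelial cells of the embryo give rise to blood stem and progenitor cells, and the sort used the adhesion receptor CD44 and the receptor Kit. Each of the 22 libraries was made from 25 cells. There were 10 CD44Neg libraries (labelled endothelial cells; 4 from embryonic day 9.5 (E9.5), 3 from E10 and 3 from E11). The 6 CD44LoKitNeg libraries (low CD44, no Kit; labelled hemogenic endothelial cells) comprised 1 from E9.5, 2 from E10 and 3 from E11. Of the 3 CD44LoKitPos libraries (low CD44 with Kit; labelled Pre-HSPC, precursors of haematopoietic stem and progenitor cells), 1 was from E9.5 and 2 were from E10. The 3 CD44High libraries (labelled HSPC) were all from E11. Nothing in the labels says that libraries of 1 group came from different embryos or litters, so p-values measure the spread between these samples, which may in part be technical. The dates in the labels follow the stages, and the 2 cannot be told apart. All CD44LoKitPos and CD44High titles carry the prefix KG-, which no CD44Neg or CD44LoKitNeg title has. Its meaning is not given, and it cannot be told apart from population between these groups.

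Cells build purines by assembling the ring stepwise on phosphoribosyl pyrophosphate (PRPP) until inosine monophosphate (IMP) is reached, from which separate branches lead to AMP and GMP. Pyrimidines are made the other way round: the ring is closed first and then joined to PRPP to give UMP, from which CTP is made. Ribonucleotide reductase turns the ribonucleotides into the building blocks of DNA, and salvage enzymes recover free bases and nucleosides. In dividing cells many of these genes are known targets of MYC and E2F transcription factors, and the demand for their products is high during DNA replication.

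Between 3912350 and 8657546 counts were assigned to genes per library (median 5758382.5). A gene with no count could have been present at up to 0.348 to 0.816 normalised CPM (counts scaled to a common library size), the level of 3 counts, a limit that covers counting error only because molecules were not tagged individually. The ribosomal RNA transcript *Rn45s* took 1.92% to 23.9% of the counts. *Cd44* lay between 2.14 and 58.9 normalised CPM in CD44Neg and between 158 and 354 in the other populations, and rose by 3.10 ± 0.42 on the log2 scale from CD44Neg to CD44LoKitNeg (SE, adjusted p = 3.95e-05). Its level in CD44High (171 to 340.5) overlapped with that in both CD44Lo populations, with adjusted p-values of 0.941 and 0.995. *Kit* was higher in CD44LoKitPos than in CD44LoKitNeg by 2.29 ± 0.38 (SE, adjusted p = 0.000767). The summed level of 10 endothelial markers was 3763 to 6458 normalised CPM in CD44Neg, 3865 to 9194 in CD44LoKitNeg, 799 to 1964 in CD44LoKitPos and 18.4 to 87.6 in CD44High, where *Cdh5*, which encodes VE-Cadherin, was at 0 in all 3 libraries. Summed over 10 haematopoietic markers, the level was 5.84 to 39.8 in CD44Neg, 10.4 to 269 in CD44LoKitNeg, 517 to 1596 in CD44LoKitPos and 1533 to 2835 in CD44High. Within CD44LoKitNeg this sum was 10.4 to 16.1 in the 3 E11 libraries, inside the CD44Neg range, and 86.4 to 269 in the 3 earlier ones. Macrophage markers summed to 1796 to 4759 in CD44High and to at most 53.9 in any other library. In bulk libraries such as these, fewer cells of a type and less RNA per cell cannot be told apart.

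The summed level of nucleotide synthesis transcripts was lowest in CD44LoKitNeg. Against CD44Neg, 8 of 31 genes tested passed the threshold, all of them lower, beside 5.23% of all genes lower. Fewer passed in some of the fits that left out 1 library. The levels of the 32 genes summed to 5193 to 8174 normalised CPM in CD44Neg, with a mean of 6377 ± 1014 (SD, n = 10), and to 3934 ± 1262 (SD, n = 6) in CD44LoKitNeg. In CD44LoKitPos the sum was 7964, 7808 and 7343, and in CD44High it was 9984, 7122 and 7803. The lowest 5 CD44LoKitNeg libraries, at 2648 to 5150, lay below all CD44Neg libraries, whereas the E9.5 library of CD44LoKitNeg, at 5752, lay within the CD44Neg range over all stages. It was below the CD44Neg libraries of its own stage, at 6880 to 8174. Such a sum is weighted towards the abundant transcripts, so the genes are taken one by one in what follows. Among the neural, mesenchyme, erythroid and macrophage markers tested between CD44LoKitNeg and CD44Neg, 1 rose and 1 fell, both of them neural. The sum of 8 neural markers was 121 to 703 in CD44LoKitNeg (244 to 703 at E11) and 77.3 to 150 in CD44Neg. *Stmn2*, a neuronal gene, was at 111 to 683 and 20.7 to 106 and rose by 2.48 ± 0.37 (SE, adjusted p = 0.000122). *Nes* fell by 2.02 (adjusted p = 0.000547), and *Sox2*, *Pax6*, *Sox10*, *Elavl3* and *Neurog2* had no count in the 6 libraries. Mesenchyme markers summed to 29.2 to 114.9 in the E11 libraries of CD44LoKitNeg, 4.19 to 20.3 in its earlier ones and 0 to 36.8 in CD44Neg, and none of the 3 tested passed (adjusted p 0.264 to 0.439). Erythroid markers summed to 21.5 to 61.3 in CD44LoKitNeg (median 34.4) and 2.61 to 23.7 in CD44Neg (median 11.4), and neither of the 2 tested passed. The part of such cells in the nucleotide synthesis values was not tested.

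**Figure D1:**
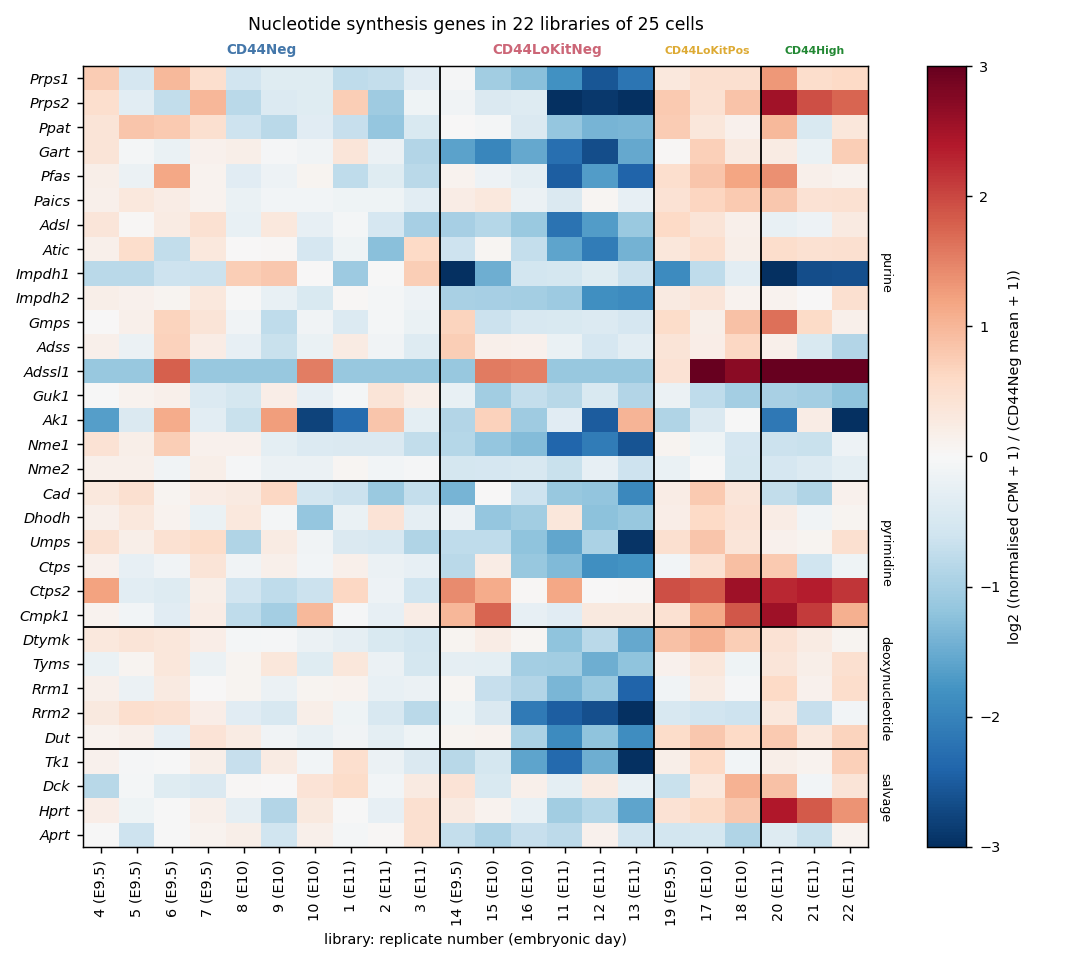
Heat map of the 32 nucleotide synthesis genes (rows, grouped by step) in the 22 libraries (columns, grouped by population and embryonic day). Colour gives log2 of the normalised CPM plus 1 over the CD44Neg mean plus 1, on a scale from −3 to 3; the CD44LoKitNeg columns are mostly below the CD44Neg mean, most so at E11, and the CD44LoKitPos and CD44High columns are mostly at or above it.

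Genes were compared between populations with edgeR's quasi-likelihood test on counts, with Benjamini-Hochberg adjustment over all genes tested, and an adjusted p under 0.01 was called a change. Against CD44Neg, CD44LoKitNeg had 8 genes lower and none higher of the 31 tested (the other one, *Adssl1*, did not pass the filter on low counts). Of all 11022 genes tested, 5.23% were lower and 4.94% higher. At an unadjusted p under 0.05, 17 of the 31 were lower and 2 higher, beside 16.6% and 15.9% of all genes. With DESeq2 size factors the calls over all genes changed from 544 higher and 577 lower to 642 and 498, and *Nme2* and *Tyms* lost their calls, as they did with no filter. The fold change was below 0 for 27 of the 31, with a median of −0.789 on the log2 scale beside 0.00503 over all genes. The count was 4 without any 1 of CD44Neg replicates 4, 5 and 7 or CD44LoKitNeg replicates 11 and 16, and 5 without any 1 of CD44Neg replicates 6, 9 and 10 or CD44LoKitNeg replicate 13. By step, 5 of 16 purine genes, 1 of 6 pyrimidine genes, 1 of 5 deoxynucleotide genes and 1 of 4 salvage genes fell.

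From CD44LoKitNeg to CD44LoKitPos, 7 of the 32 genes were higher and none lower. In that comparison 2.55% of all genes tested were higher and 1.71% lower. The fold change was above 0 for 30 of the 32, with a median of 1.16 beside −0.0208 over all genes. With DESeq2 size factors the median of all genes moved by −0.133 and the calls over all genes changed from 330 higher and 222 lower to 218 higher and 273 lower, while 5 of the 32 genes were called, so fold changes in this comparison are to be read relative to that shift. The count was 3 without CD44LoKitPos replicate 17 or 18, 4 without CD44LoKitNeg replicate 11 or 12, and 11 without CD44LoKitNeg replicate 14. The 2 comparisons share the CD44LoKitNeg libraries, so a gene low in those libraries moves in both.

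CD44LoKitPos and CD44Neg differed in 1 gene, which was higher (2.08% of all genes were higher and 1.41% lower), with a median of 0.412 over the 32 genes and −0.0107 over all genes. CD44High had 13 genes higher and none lower than CD44LoKitNeg (7.79% and 8.17% of all genes), with a median of 1.21 beside 0 over all genes. That count was 3 without CD44High replicate 20, 7 without replicate 21 and 5 without replicate 22. Against CD44Neg, CD44High had 3 genes higher and 2 lower (7.14% and 7.25% of all genes), and 3 in all without CD44High replicate 20. Between CD44High and CD44LoKitPos edgeR called none of the 32 (0.78% of all genes were higher and 2.23% lower), with 3 at an unadjusted p under 0.05 (17.8% of all genes) and 1 called by DESeq2 (5.53% of all genes). The median of the 32 was −0.0407, with 14 above 0. With stage as a covariate the median was 0.314 (0.0187 over all genes), with 26 above 0 and none called (2.73% of all genes). CD44High was sampled only at E11 and CD44LoKitPos only at E9.5 and E10, so population and stage cannot be told apart between them.

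**Figure D2:**
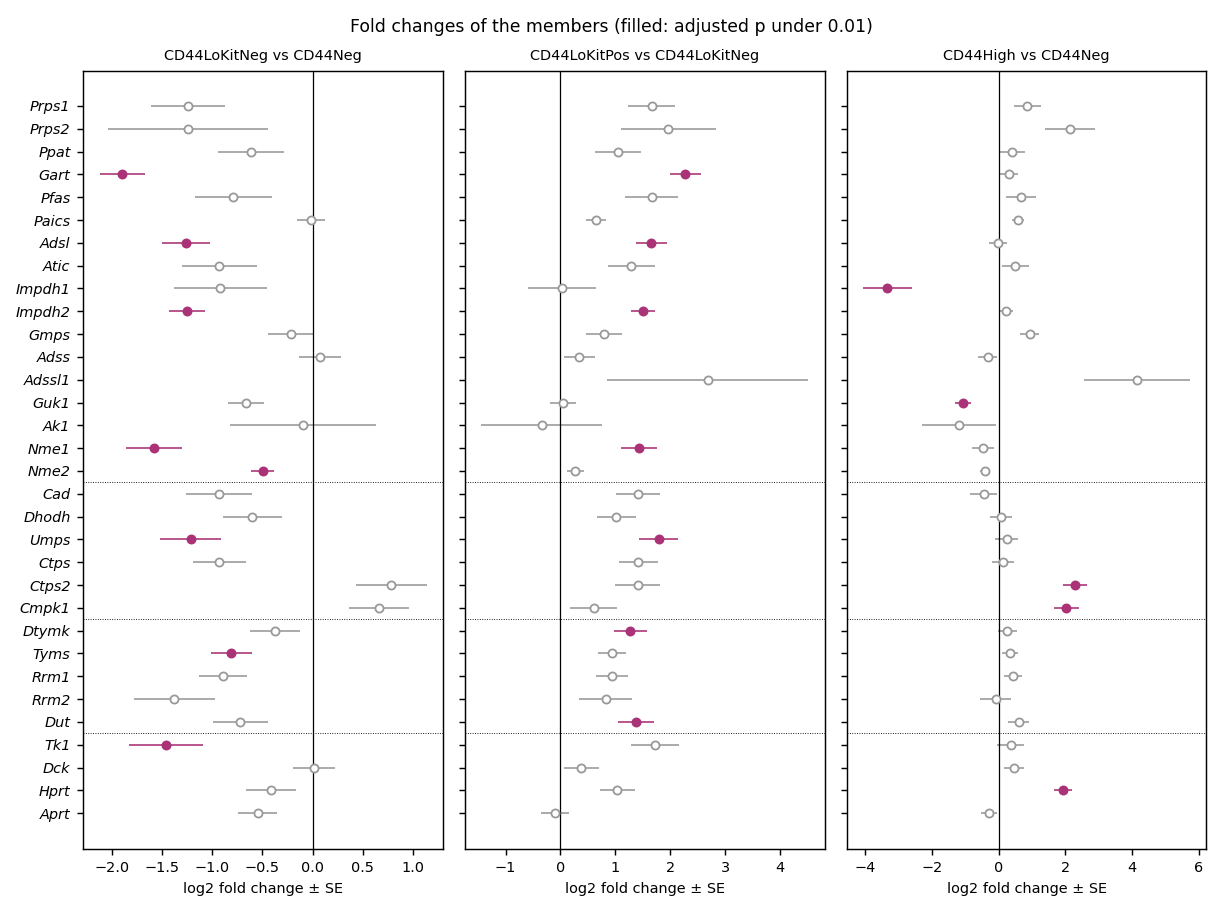
Log2 fold change of each of the 32 genes with its standard error (edgeR) in CD44LoKitNeg against CD44Neg, CD44LoKitPos against CD44LoKitNeg and CD44High against CD44Neg. Filled points have an adjusted p under 0.01; there are 8 in the first comparison, all below 0, 7 in the next, all above 0, and 5 in the last.

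The sequence before several of the genes that changed holds CACGTG, the E-box letters bound by MYC among other factors. In RefSeq promoter sequences (GRCm38.p6, from 250 bases before to 50 after the start; 30 of the 32 genes matched, without *Pfas* and *Dhodh*), CACGTG, which reads the same on both strands, was found for 6 genes: *Paics*, *Atic*, *Impdh2*, *Nme1*, *Dtymk* and *Tyms*. It was in a promoter of 8.09% of 27025 genes. The windows are shown because *Impdh2*, *Nme1* and *Tyms* fell in CD44LoKitNeg and *Impdh2*, *Nme1* and *Dtymk* rose in CD44LoKitPos, and each is printed 5′ to 3′ on the strand of its gene with CACGTG in capitals.
Impdh2: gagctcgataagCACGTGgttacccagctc
Nme1: gctgcggggaacCACGTGaggccggggagc
Nme1, the other start: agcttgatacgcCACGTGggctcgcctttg
Tyms: aaccacttctgtCACGTGggggcggggtct
Dtymk: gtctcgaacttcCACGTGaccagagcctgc
Paics: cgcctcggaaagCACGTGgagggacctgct
Atic: gaggaggggcgggacctcggggtCACGTGg
These windows lie at chr9:108560314-108560343 on the plus strand for *Impdh2* (the motif begins at −110 from the RefSeq start), at chr11:93968273-93968302 (−18) and chr11:93968037-93968066 (−29) on the minus strand for the 2 starts of *Nme1*, and at chr5:30073669-30073698 on the minus strand for *Tyms* (−61). The *Dtymk* window is chr1:93802065-93802094 on the minus strand (−148), that of *Paics* is chr5:76951087-76951116 on the plus strand (−203), and that of *Atic* is chr1:71557126-71557155 on the plus strand (−7). *Gart*, *Adsl* and *Umps*, which changed in both comparisons, had no CACGTG in this window. Nor had *Nme2* and *Tk1*, which fell in CD44LoKitNeg, or *Dut*, which rose in CD44LoKitPos. *Paics* and *Atic*, which hold it, passed the threshold in neither comparison. TTTGGCGC or TTTCCCGC, letters of E2F sites searched on both strands, were found for 2 genes (*Prps2* and *Ppat*; 1.8% of genes), and CCAAT, searched on both strands, for 10 (41.1% of genes). A match describes the letters only.

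Among the purine genes, *Gart* had the smallest adjusted p of the 32 in each of the 3 comparisons that involve CD44LoKitNeg. *Gart* (chr16:91621186-91646952, minus strand; coordinates of GENCODE M21 on GRCm38 here and below) encodes a multifunctional enzyme of several early steps of ring assembly. Its level was 64.6 to 156 normalised CPM in CD44Neg (median 116) and 17.98 to 40.7 in CD44LoKitNeg (median 34.1), and all 6 CD44LoKitNeg libraries were below all 10 CD44Neg libraries. In CD44LoKitPos it was 198, 144 and 123, and in CD44High 142, 104 and 199.7, all above the CD44LoKitNeg range. *Gart* fell by 1.89 ± 0.23 on the log2 scale from CD44Neg to CD44LoKitNeg (SE, adjusted p = 1.51e-05). It was higher in CD44LoKitPos than in CD44LoKitNeg by 2.28 ± 0.28 (SE, adjusted p = 5.39e-05) and in CD44High by 2.22 ± 0.28 (SE, adjusted p = 2.57e-06). Each of these calls held with any 1 library left out. Of the 50-base stretches of *Gart* transcripts, 12% are shared with the antisense gene *Gm15964*, which has no row in the count table.

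*Adsl* (chr15:80948490-80970946, plus strand) encodes adenylosuccinate lyase, which acts both in ring assembly and in the AMP branch. Its level was 104 to 284 in CD44Neg (median 205), 43.3 to 113 in CD44LoKitNeg (median 95.1), 269.7, 229.7 and 310.3 in CD44LoKitPos and 177, 187 and 247 in CD44High. A single CD44LoKitNeg library, at 113, overlapped with CD44Neg, and CD44LoKitPos and CD44High lay above CD44LoKitNeg. *Adsl* fell in CD44LoKitNeg by 1.26 ± 0.24 (SE, adjusted p = 0.000821) and was higher in CD44LoKitPos by 1.66 ± 0.28 (SE, adjusted p = 0.000877), calls that held with any 1 library left out. Its rise in CD44High over CD44LoKitNeg, 1.25 ± 0.28 (SE, adjusted p = 0.00188), had adjusted p-values of 0.0101, 0.0107 and 0.0327 without CD44High replicate 20, 21 or 22.

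IMP dehydrogenase sets the rate of the GMP branch and is encoded by *Impdh1* and *Impdh2*. *Impdh2* (chr9:108560286-108565584, plus strand) was at 143 to 248 in CD44Neg (median 201), 52.7 to 101 in CD44LoKitNeg (median 94.6), 254, 213 and 239.7 in CD44LoKitPos and 214, 199 and 277 in CD44High. The CD44LoKitNeg libraries were below every library of the other populations. *Impdh2* fell in CD44LoKitNeg by 1.25 ± 0.18 (SE, adjusted p = 9.29e-05) and was higher in CD44LoKitPos by 1.51 ± 0.22 (SE, adjusted p = 0.000244) and in CD44High by 1.47 ± 0.22 (SE, adjusted p = 2.47e-05). All 3 calls held with any 1 library left out. Of the 50-base stretches of its transcripts 67.6% also occur in the pseudogene *Impdh2-ps*, which has no row in the table, and how reads matching both were treated is not given in the sources used here.

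*Impdh1* (chr6:29200434-29216364, minus strand) was at 9.80 to 39.6 in CD44Neg (median 18.1), 1.85 to 16.9 in CD44LoKitNeg (median 14.3), 12.6, 17.6 and 5.28 in CD44LoKitPos and 1.19, 2.66 and 2.72 in CD44High. The CD44High libraries lay below all CD44Neg libraries. *Impdh1* fell by 3.34 ± 0.74 from CD44Neg to CD44High (SE, adjusted p = 0.00152; 0.0134 without CD44High replicate 20). Its difference from CD44LoKitPos, −2.43 ± 0.77 (SE, adjusted p = 0.064), did not pass the threshold, nor did that between CD44LoKitNeg and CD44Neg, −0.92 (adjusted p = 0.177).

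Nucleoside diphosphate kinases make the triphosphates of both purines and pyrimidines. *Nme1* (chr11:93956979-93968521, minus strand) was at 548 to 1541 in CD44Neg (median 882), 152 to 509 in CD44LoKitNeg (median 295), 837, 651 and 983 in CD44LoKitPos and 591, 576 and 827 in CD44High. All CD44LoKitNeg libraries were below all others. *Nme1* fell in CD44LoKitNeg by 1.58 ± 0.28 (SE, adjusted p = 0.000486), also with any 1 library left out. It was higher in CD44LoKitPos by 1.42 ± 0.33 (SE, adjusted p = 0.00732), a call that was lost without CD44LoKitNeg replicate 11, 12, 13 or 16 or any 1 CD44LoKitPos library (adjusted p 0.0101 to 0.0466). Its neighbour *Nme2* (chr11:93949814-93956259, minus strand) was at 438 to 561 in CD44Neg (median 483), 309 to 416 in CD44LoKitNeg (median 343), 491, 343 and 427 in CD44LoKitPos and 345, 369 and 402 in CD44High. *Nme2* fell in CD44LoKitNeg by 0.50 ± 0.12 (SE, adjusted p = 0.00493), with no overlap between the libraries of the 2 populations. The *Nme2* call was lost without CD44Neg replicate 4, 5 or 7 or CD44LoKitNeg replicate 11, 13, 14, 15 or 16 (adjusted p 0.0103 to 0.0145). A readthrough gene with no row in the table, *Gm20390*, shares 11.1% of the 50-base stretches of *Nme1* and 47% of those of *Nme2*.

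The other purine genes did not pass the threshold between CD44LoKitNeg and CD44Neg. PRPP synthetase, which makes the substrate of both pathways, is encoded by *Prps1* and *Prps2*. *Prps1* was at 115 to 387 in CD44Neg and 32.6 to 192 in CD44LoKitNeg (−1.24, adjusted p = 0.0213), 274, 273 and 244 in CD44LoKitPos and 485, 282 and 301 in CD44High. It was higher in CD44High than in CD44LoKitNeg by 2.09 ± 0.44 (SE, adjusted p = 0.000868; 0.0166 without CD44High replicate 20). *Prps2* had no count in 2 of the 3 E11 CD44LoKitNeg libraries and 3.23 normalised CPM in the other one, beside 28.3, 22.2 and 23.1 in the earlier CD44LoKitNeg libraries and 179.5, 119 and 104 in CD44High. *Prps2* rose in CD44High over CD44LoKitNeg by 3.39 (adjusted p = 0.00587), a call that was lost without CD44LoKitNeg replicate 12 or any 1 CD44High library (adjusted p 0.0136 to 0.0326).

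*Ppat*, whose product commits PRPP to purine synthesis, and *Paics*, whose product adds carbon dioxide and aspartate to the growing ring, lie head to head on chromosome 5 with starts 271 bases apart and overlapping first exons. *Paics* was at 465 to 721 in CD44Neg, 427 to 718 in CD44LoKitNeg, 899, 995 and 774 in CD44LoKitPos and 1008, 775 and 799 in CD44High. CD44LoKitNeg and CD44Neg overlapped over nearly their whole range (−0.01, adjusted p = 0.963). CD44LoKitPos lay above CD44Neg by 0.62 ± 0.17 (SE, adjusted p = 0.0218) without passing the threshold, the smallest adjusted p of a purine gene in that comparison. *Ppat* was at 61.1 to 248 in CD44Neg and 51.7 to 141 in CD44LoKitNeg (−0.61, adjusted p = 0.208).

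*Pfas*, *Atic* and *Gmps* encode further enzymes of ring assembly, its closing steps and the GMP branch. Their fold changes between CD44LoKitNeg and CD44Neg were −0.79, −0.93 and −0.22, with adjusted p-values of 0.159, 0.0836 and 0.541. *Gmps* was at 715, 339 and 256 in CD44High and at 146 to 365 in CD44LoKitNeg, ranges that overlapped, with a rise of 1.16 (adjusted p = 0.00858). That call was lost in 7 of 9 fits with 1 library left out, and without CD44High replicate 20, at 715, the difference was 0.48 (adjusted p = 0.34); the other 6 were CD44High replicate 21 and CD44LoKitNeg replicates 11, 12, 13, 15 and 16.

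*Adss* and *Adssl1* encode the 2 forms of adenylosuccinate synthase, which opens the AMP branch. *Adss* was at 125 to 325 in CD44Neg and 142 to 337 in CD44LoKitNeg (0.07, adjusted p = 0.859). *Adssl1*, the form known from muscle, had no count in 8 of 10 CD44Neg and 4 of 6 CD44LoKitNeg libraries and was at 19.7, 13.3 and 1.96 in CD44LoKitPos and 26.9, 19.4 and 19.04 in CD44High, where it did not pass the threshold against CD44Neg (adjusted p = 0.063). Guanylate kinase, *Guk1*, was at 88.3 to 168 in CD44Neg, 61.9 to 109.7 in CD44LoKitNeg (−0.66, adjusted p = 0.0119) and 64.5, 62.6 and 54.7 in CD44High, below every CD44Neg library. *Guk1* fell from CD44Neg to CD44High by 1.08 ± 0.24 (SE, adjusted p = 0.00186; 0.0139 without CD44High replicate 22). The adenylate kinase gene *Ak1* stayed at or below 26.4 in every library and passed the threshold in no population comparison.

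**Figure D3:**
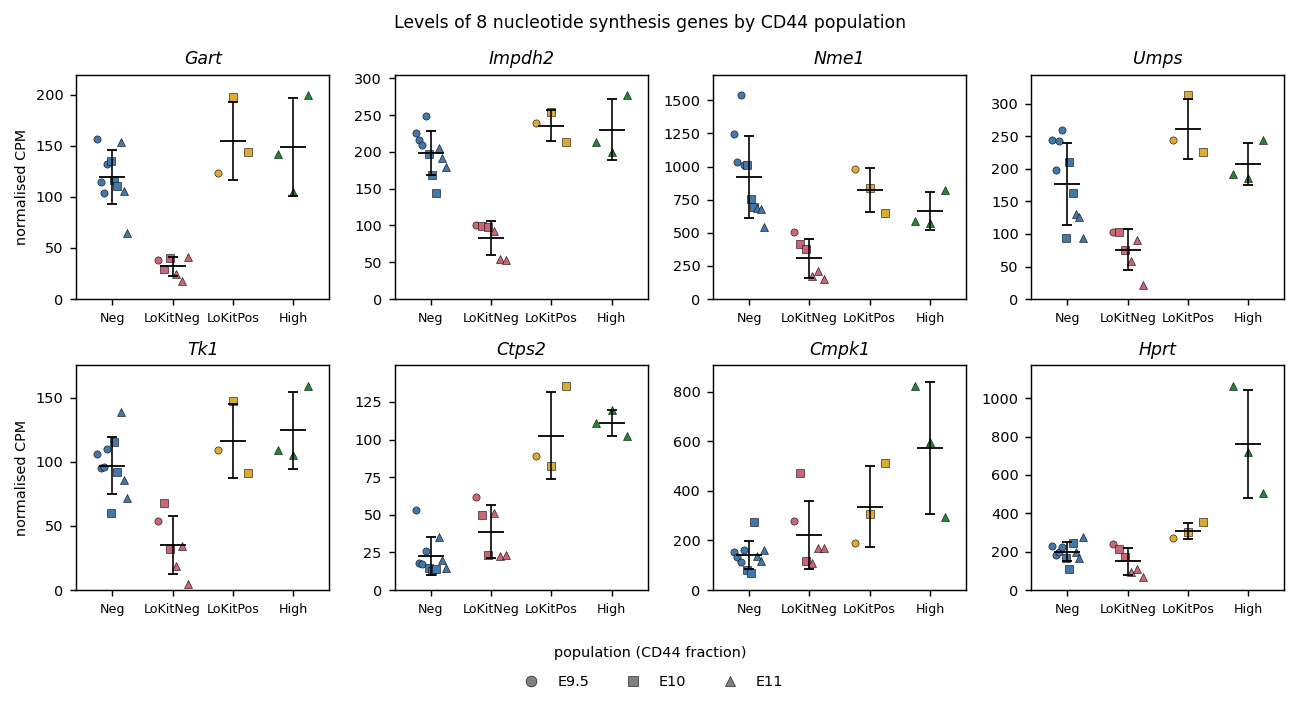
Normalised CPM of 8 genes by population, 1 point per library with its shape giving the embryonic day and a bar for the mean ± SD (n = 10, 6, 3 and 3). *Gart*, *Impdh2*, *Nme1*, *Umps* and *Tk1* have their lowest mean in CD44LoKitNeg, whereas *Ctps2*, *Cmpk1* and *Hprt* are highest in CD44High or CD44LoKitPos.

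In the pyrimidine branch, *Umps* (chr16:33954782-33967038, minus strand) encodes the enzyme that yields UMP. It was at 94.3 to 260.2 in CD44Neg (median 180), 22.2 to 104 in CD44LoKitNeg (median 83.2), 313, 226 and 245 in CD44LoKitPos and 192, 186 and 245 in CD44High. The highest CD44LoKitNeg libraries overlapped with the lowest CD44Neg ones, and both other populations lay above CD44LoKitNeg. *Umps* fell in CD44LoKitNeg by 1.21 ± 0.30 (SE, adjusted p = 0.00765), was higher in CD44LoKitPos by 1.79 ± 0.36 (SE, adjusted p = 0.00319) and in CD44High by 1.46 ± 0.36 (SE, adjusted p = 0.00388). The first call was lost without CD44Neg replicate 4, 5, 6, 7, 9 or 10 or CD44LoKitNeg replicate 11, 12, 13 or 16 (adjusted p 0.0114 to 0.0186), the next without CD44LoKitPos replicate 17 (0.0348) or 18 (0.0105), and the last without CD44LoKitNeg replicate 11 or any 1 CD44High library (0.0112 to 0.0372).

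*Cad*, which encodes the enzyme that starts the pathway, was at 22.8 to 77.8 in CD44Neg and 12.5 to 50.5 in CD44LoKitNeg (−0.93, adjusted p = 0.0488). *Dhodh*, the mitochondrial step, was at 21.2 to 64.8 and 20.1 to 61.4 (−0.60, adjusted p = 0.159). Neither passed the threshold in any population comparison. Between CD44High and CD44LoKitPos, *Cad* had the smallest adjusted p of the pyrimidine genes, at −0.93 ± 0.49 (SE, adjusted p = 0.328), a sign that turned with stage as a covariate (0.0787).

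CTP synthase has 2 genes that did not move together. *Ctps* was at 99.6 to 155 in CD44Neg and at 32.2 to 67.6 in 5 of the 6 CD44LoKitNeg libraries, with 139 in the other one, replicate 15 from E10 (−0.93, adjusted p = 0.0159). *Ctps2* (chrX:162901238-163032508, plus strand) was at 12.97 to 53.3 in CD44Neg (median 17.5), 22.6 to 61.7 in CD44LoKitNeg (median 36.6), 82.7, 136 and 89.3 in CD44LoKitPos and 111, 119.6 and 103 in CD44High. The CD44LoKitPos and CD44High libraries lay above every library of the other populations. *Ctps2* was higher than in CD44Neg by 2.19 ± 0.36 in CD44LoKitPos (SE, adjusted p = 0.000428), the single call of that comparison, and by 2.30 ± 0.36 in CD44High (SE, adjusted p = 4.01e-05). Without CD44LoKitPos replicate 18 the first of these had an adjusted p of 0.0103, which left no gene called in that comparison; the CD44High call held with any 1 library left out. The rise from CD44LoKitNeg to CD44High, 1.52 (adjusted p = 0.00774), was lost in 7 of 9 fits, without CD44LoKitNeg replicate 12, 13, 15 or 16 or any 1 CD44High library (adjusted p 0.0126 to 0.0432). This call was also lost with no filter and within shared stages (adjusted p up to 0.0119).

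*Cmpk1*, the kinase of UMP and CMP, was at 68.2 to 276 in CD44Neg (median 134), 111 to 473 in CD44LoKitNeg (median 171), 307, 512 and 191 in CD44LoKitPos and 824, 599 and 295 in CD44High. The CD44High libraries were above all CD44Neg libraries and overlapped with the other 2 populations. *Cmpk1* was higher in CD44High than in CD44Neg by 2.03 ± 0.37 (SE, adjusted p = 0.000232; 1.58 and 0.0112 without CD44High replicate 20). In CD44LoKitNeg its difference from CD44Neg was 0.66 (adjusted p = 0.134) and that of *Ctps2* was 0.78 (adjusted p = 0.122), the 2 largest positive values among the 31 genes tested there.

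Deoxynucleotide genes are used most in S phase. *Tyms* (chr5:30058202-30073617, minus strand), which encodes thymidylate synthase, was at 140.3 to 256 in CD44Neg (median 195), 72.3 to 168 in CD44LoKitNeg (median 97.8), 257, 184 and 220.0 in CD44LoKitPos and 261, 227 and 283 in CD44High. The CD44LoKitNeg libraries replicate 14 (E9.5) and 15 (E10), at 168 and 165, overlapped with CD44Neg. *Tyms* fell in CD44LoKitNeg by 0.81 ± 0.21 (SE, adjusted p = 0.00843) and was higher in CD44High than in CD44LoKitNeg by 1.16 ± 0.25 (SE, adjusted p = 0.0013; 0.0136 and 0.0154 without CD44High replicate 20 or 22). The fall was lost in 13 of 16 fits with 1 library left out, that is, without any CD44Neg library but replicate 3 or without CD44LoKitNeg replicate 11, 12, 13 or 16 (adjusted p 0.0101 to 0.0238).

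Ribonucleotide reductase, the enzyme that makes deoxynucleotides, has a large subunit encoded by *Rrm1* and a small one, high in S phase, encoded by *Rrm2*. *Rrm1* was at 392 to 555 in CD44Neg, 87.1 to 478 in CD44LoKitNeg, 548, 449 and 429.7 in CD44LoKitPos and 695, 505 and 661 in CD44High. *Rrm2* was at 270 to 676 in CD44Neg and 43.7 to 434 in CD44LoKitNeg. In both genes the 3 E11 libraries of CD44LoKitNeg were below every CD44Neg library, at 87.1 to 213 for *Rrm1* and 43.7 to 84.6 for *Rrm2*, and the E9.5 library was within the CD44Neg range over all stages. For *Rrm2* that library, at 434, was below every CD44Neg library of E9.5, at 548 to 676. Over all stages neither passed the threshold, with −0.89 (adjusted p = 0.0116) for *Rrm1* and −1.38 (adjusted p = 0.0199) for *Rrm2*. *Rrm1* was higher in CD44High than in CD44LoKitNeg by 1.32 ± 0.29 (SE, adjusted p = 0.00141; 0.0196 and 0.0125 without CD44High replicate 20 or 22).

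*Dtymk*, the thymidylate kinase gene, was at 116 to 223 in CD44Neg, 58.2 to 199 in CD44LoKitNeg and 352, 287 and 316 in CD44LoKitPos, which lay above all of these. *Dtymk* was higher in CD44LoKitPos than in CD44LoKitNeg by 1.27 ± 0.30 (SE, adjusted p = 0.00854), and its difference from CD44Neg, 0.89 ± 0.28 (SE, adjusted p = 0.051), did not pass. *Dut*, whose product removes dUTP and so keeps uracil out of DNA, was at 165 to 267 in CD44Neg, 53.8 to 219 in CD44LoKitNeg, 353, 307 and 296 in CD44LoKitPos and 348, 251 and 322 in CD44High. *Dut* was higher than in CD44LoKitNeg by 1.38 ± 0.33 in CD44LoKitPos (SE, adjusted p = 0.00879) and by 1.33 ± 0.33 in CD44High (SE, adjusted p = 0.00425). These 3 calls lay near the threshold: the *Dtymk* call was lost without CD44LoKitNeg replicate 11, 12 or 13 or any 1 CD44LoKitPos library (adjusted p 0.017 to 0.0682), and both *Dut* calls without CD44LoKitNeg replicate 11, 12, 13 or 16 or any 1 library of the other population (0.0103 to 0.0674). With 1 library left out the fold change of *Dtymk* stayed at 1.08 to 1.39. That of *Dut* stayed at 1.19 to 1.62 in CD44LoKitPos and 1.1 to 1.57 in CD44High. The *Dut* call in CD44LoKitPos was also lost when stage was added to the fit (1.16, adjusted p = 0.0142), and both CD44LoKitPos calls with DESeq2 size factors or no filter. Between CD44High and CD44LoKitPos, *Dtymk* was at −0.63 ± 0.36 (SE, adjusted p = 0.389), which became 0.206 with stage as a covariate. The smallest adjusted p of these genes between CD44High and CD44Neg was that of *Dut*, 0.177, at 0.60 ± 0.31 (SE), which passed with stage as a covariate (1.1, adjusted p = 0.00728).

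Of the salvage genes, *Tk1* (chr11:117815526-117826092, minus strand), the thymidine kinase gene of cycling cells, was at 59.7 to 139 in CD44Neg (median 95.6), 4.65 to 67.5 in CD44LoKitNeg (median 33.2), 148, 91.1 and 109 in CD44LoKitPos and 109, 105 and 159 in CD44High. A single CD44LoKitNeg library, at 67.5, overlapped with CD44Neg. *Tk1* fell in CD44LoKitNeg by 1.46 ± 0.37 (SE, adjusted p = 0.00797) and was higher in CD44High than in CD44LoKitNeg by 1.83 ± 0.43 (SE, adjusted p = 0.00269; 0.0109 and 0.0291 without CD44High replicate 20 or 22). The fall was lost in 11 of 16 fits, without CD44Neg replicate 1, 2, 4, 5, 6, 7, 9 or 10 or CD44LoKitNeg replicate 11, 12 or 16 (adjusted p 0.0109 to 0.0198). Between CD44LoKitPos and CD44LoKitNeg the difference of 1.72 ± 0.43 (SE, adjusted p = 0.0113) just missed the threshold, which it passed without CD44LoKitNeg replicate 13, 14 or 15 (adjusted p 0.00552 to 0.00805).

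*Hprt* (chrX:52988137-53021659, plus strand) encodes the enzyme that recycles hypoxanthine and guanine. Its level was 109 to 278 in CD44Neg (median 199), 65.7 to 240.4 in CD44LoKitNeg (median 141), 300.4, 354 and 269 in CD44LoKitPos and 1065, 718 and 508 in CD44High. Each CD44High library was above every library of the other populations. *Hprt* was higher in CD44High than in CD44Neg by 1.93 ± 0.28 (SE, adjusted p = 1.51e-05) and than in CD44LoKitNeg by 2.35 ± 0.32 (SE, adjusted p = 7.08e-06), both with any 1 library left out. Against CD44LoKitPos the difference was 1.31 ± 0.39 (SE, adjusted p = 0.0437), which DESeq2's Wald test called (adjusted p = 0.00601). *Aprt*, its counterpart for adenine, was at 173 to 369 in CD44Neg, 139 to 288 in CD44LoKitNeg, 184, 142 and 180.0 in CD44LoKitPos and 202, 168 and 287 in CD44High. *Dck*, the deoxycytidine kinase gene, was at 48.7 to 129 in CD44Neg and 64.1 to 118 in CD44LoKitNeg (0.02, adjusted p = 0.972). Neither *Aprt* nor *Dck* passed the threshold in any population comparison; the smallest adjusted p of a salvage gene between CD44LoKitPos and CD44Neg was 0.114, for *Aprt* at −0.65 ± 0.25 (SE).

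The CD44High libraries also held macrophage transcripts. All 9 macrophage markers tested were higher in CD44High than in CD44Neg and than in CD44LoKitNeg, 6 of 9 were higher than in CD44LoKitPos, and all 10 endothelial markers were lower than in CD44Neg. Erythroid markers summed to 58.9 to 285 in CD44High and to at most 61.3 elsewhere. Mesenchyme markers summed to 384.8, 160.6 and 0.272 in CD44High replicates 20, 21 and 22 and to at most 114.9 elsewhere, and 1 of the 8 tested, *Postn*, was higher than in CD44Neg (adjusted p = 0.00132), with overlapping libraries. Replicate 20, the highest of these, also had the highest *Hprt*, *Cmpk1* and *Gmps* levels of the 3. Its macrophage sum was the lowest, with 1796, 4759 and 4233 in replicates 20, 21 and 22. The erythroid sums of these replicates were 284.9, 58.85 and 278. The part of these transcripts in the CD44High values of *Hprt*, *Cmpk1*, *Ctps2*, *Impdh1* and *Guk1* was not tested.

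Pairs of genes for the same enzyme were also compared within libraries, as the log2 ratio of the counts of one gene to those of the other, in which library size cancels. A ratio of 0 does not mean equal transcript numbers, because the genes differ in length. The *Ctps* to *Ctps2* ratio was 2.53 ± 0.58 (SD, n = 10) in CD44Neg and 0.62 ± 0.62 (SD, n = 6) in CD44LoKitNeg. The ranges, 1.29 to 3.35 and −0.13 to 1.48, overlapped in 1 CD44LoKitNeg library and 1 CD44Neg library. The difference of −1.91 had p = 0.00025 in an exact two-sided permutation test and an adjusted p of 0.0015 over the 6 pairs tested; the smallest p possible was 0.000125. In CD44LoKitPos the ratio was 0.68 ± 0.33 and in CD44High 0.12 ± 0.74 (SD, n = 3 each), values near those of CD44LoKitNeg.

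The *Nme1* to *Nme2* ratio was 0.84 ± 0.44 (SD, n = 10) in CD44Neg, −0.32 ± 0.71 (SD, n = 6) in CD44LoKitNeg, 0.97 ± 0.22 in CD44LoKitPos and 0.82 ± 0.20 in CD44High (SD, n = 3 each). Within CD44LoKitNeg it was −1.08 to −0.80 at E11, below every other library, and 0.0987, 0.25 and 0.59 in the earlier libraries, the lowest of which also lay below the CD44Neg range of 0.18 to 1.76. In CD44Neg it was 0.846 to 1.76 at E9.5, 0.657 to 1.07 at E10 and 0.179 to 0.547 at E11. At each stage the CD44LoKitNeg libraries were below all CD44Neg libraries of that stage. The permutation tests took no account of stage. The difference between CD44LoKitNeg and CD44Neg was −1.16 (exact two-sided permutation p = 0.00112, adjusted p = 0.00336). For *Rrm1* to *Rrm2* the ratio was 0.0017 ± 0.39 (SD, n = 10) in CD44Neg and 0.76 ± 0.70 (SD, n = 6) in CD44LoKitNeg, a difference of 0.76 (exact permutation p = 0.0137, adjusted p = 0.0274), which had an adjusted p of 0.0632 to 0.084 without CD44LoKitNeg replicate 11, 12, 13 or 16. Of the other 3 pairs none passed 0.05: *Prps1* to *Prps2* 2.08 (adjusted p = 0.137, and 0.973 with 5 in place of 0.5 added to each count, 1.1 without CD44LoKitNeg replicate 11 and 1.22 without replicate 13, both with no *Prps2* count) and *Impdh1* to *Impdh2* 0.26 (adjusted p = 0.804), while the *Adss* to *Adssl1* ratio (adjusted p = 0.965) is set by the 0.5 added in the libraries with no *Adssl1* count. In the E11 libraries alone the differences were −2.05 for *Ctps* to *Ctps2*, −1.33 for *Nme1* to *Nme2*, 0.865 for *Rrm1* to *Rrm2* and 1.17 for *Impdh1* to *Impdh2*; with 3 libraries against 3 no exact test can go below 0.10. No E11 value is given for the other 2 pairs: *Prps2* had no count in 2 of the 3 CD44LoKitNeg libraries of that stage, and *Adssl1* had none in any E11 library of either population.

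**Figure D4:**
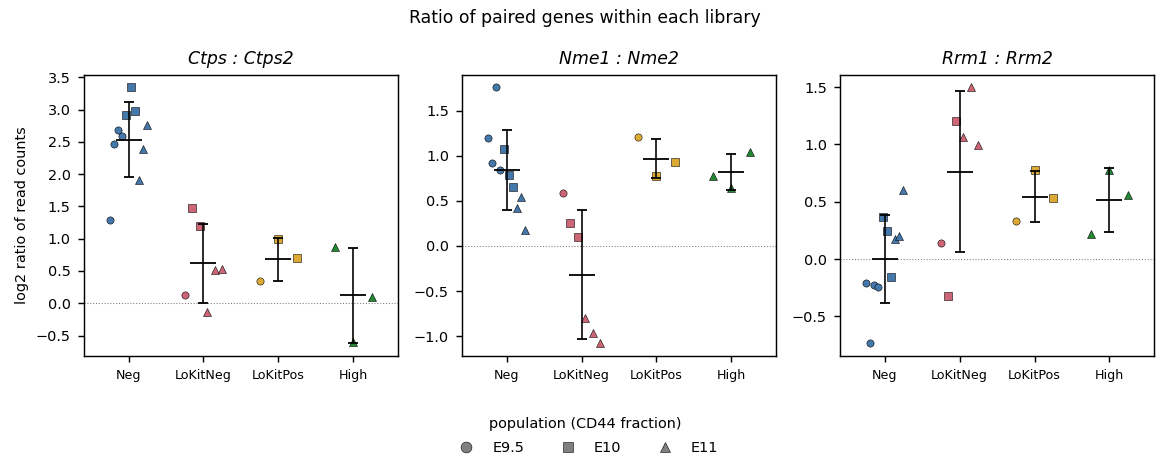
Log2 ratio of counts within each library for *Ctps* to *Ctps2*, *Nme1* to *Nme2* and *Rrm1* to *Rrm2* by population, 1 point per library with its shape giving the embryonic day and a bar for the mean ± SD. The *Ctps* to *Ctps2* ratio is lower in all 3 CD44-positive populations than in CD44Neg. The lowest *Nme1* to *Nme2* ratios are those of CD44LoKitNeg at E11, and at each stage this population lies below CD44Neg.

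Stage was uneven across the populations, so the comparisons were repeated within stages. Among the E11 libraries alone (3 against 3), 4 of 31 genes were lower in CD44LoKitNeg than in CD44Neg: *Impdh2* (−1.47), *Nme1* (−1.76), *Rrm2* (−2.31) and *Dut* (−1.40). In that fit 3.41% of all genes were called and the median fold change of the 31 was −0.975. *Gart*, at −1.91, had an adjusted p of 0.0224. Among the E10 libraries (2 against 3) edgeR called none of 32, with 8 at an unadjusted p under 0.05 (19% of all genes), where it called 0.00894% of all genes, and the median was −0.273. Stage as a covariate gave 13 calls (10.7% of all genes), and with contrasts within the stages that both populations share 7 (6.47%), which no longer included *Nme2*, *Umps*, *Tyms* and *Tk1*. Within shared stages, CD44LoKitPos had 2 genes higher than CD44LoKitNeg (0.876% of all genes), *Gart* (2.00) and *Impdh2* (1.26). At E11, the stage that CD44High shares with the other populations, 20 genes were higher and 1 lower, *Impdh1* at −2.92, than in CD44LoKitNeg (16.2% of all genes), and 6 differed from CD44Neg (9.42%), namely *Ctps2*, *Cmpk1*, *Hprt*, *Impdh1*, *Guk1* and *Prps1* (1.40).

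In CD44LoKitNeg the deoxynucleotide and purine sums were lowest at E11 and highest at E9.5, and the other 2 overlapped between stages. The 5 deoxynucleotide genes summed to 331 to 545 at E11, 741 and 1219 at E10 and 1478 at E9.5. In CD44Neg they summed to 1121 to 1518.5, 1358 to 1511 and 1652 to 1845 at these stages, above CD44LoKitNeg at each. For the 17 purine genes the CD44LoKitNeg sums were 1661 to 1931 at E11, 2311 and 2607 at E10 and 3129.6 at E9.5. The CD44Neg purine sums were 2803 to 3198, 3095 to 3406 and 4026 to 5119.8, again above CD44LoKitNeg at each stage. In CD44LoKitNeg the pyrimidine sums were 284 to 359 at E11, 326 and 837 at E10 and 572 at E9.5, and the salvage sums 323 to 536, 465.9 and 487, and 572. E9.5 is a single CD44LoKitNeg library. A test of whether the difference between CD44LoKitNeg and CD44Neg itself changed from E10 to E11 called none of the 32 genes in edgeR (0.00806% of all genes), with 11 at an unadjusted p under 0.05, all towards a lower CD44LoKitNeg level at E11 (6.35% of all genes in that direction), and none called by DESeq2 (0.976% of all genes). The interaction was below 0 for 27 of 32, with a median of −0.772 beside −0.0323 over all genes. The smallest adjusted p-values by step were those of *Pfas* (−1.45, 0.21), *Ctps* (−1.30, 0.357), *Dtymk* (−0.97, 0.308) and *Hprt* (−1.42, 0.277).

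Within the CD44Neg population the 17 purine genes summed to 4026 to 5119.8 at E9.5, 3095 to 3406 at E10 and 2803 to 3198 at E11, and a single gene passed the threshold between stages. *Ppat* was at 181, 248, 239 and 193 at E9.5, 90.3, 78.5 and 109 at E10 and 85.3, 61.1 and 101 at E11, so that the E9.5 libraries were above all later ones. *Ppat* fell by 1.36 ± 0.23 from E9.5 to E11 (SE, adjusted p = 0.00672; 1 of 31 genes beside 0.684% of all genes), a call that was lost with any 1 of the 7 libraries left out (adjusted p 0.012 to 0.0398). The smallest adjusted p-values of the other steps were those of *Umps* (−0.99, 0.0421), *Dtymk* (−0.71, 0.0274) and *Dck* (0.70, 0.151), and the median of the 31 was −0.217 beside 0.0339 over all genes.

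Between E9.5 and E10 edgeR called none of the 31 (0.0178% of all genes), with 12 at an unadjusted p under 0.05 (15.2% of all genes), 10 of them lower at E10, and DESeq2 called 1, *Ppat* (2.05% of all genes). Its difference in edgeR was −1.20 (adjusted p = 0.0246), and those of *Umps*, *Rrm2* and *Dck*, the smallest adjusted p-values of the other steps, were −0.59 (0.27), −0.53 (0.209) and 0.59 (0.271). Between E10 and E11 neither edgeR (0 of 31, and 0% of all genes) nor DESeq2 (0.4% of all genes) called any, with 1 gene, *Cad*, at an unadjusted p under 0.05 (−1.02, adjusted p = 0.43; 8.68% of all genes). The other steps had their smallest adjusted p-values in *Nme1* (−0.36, 0.63), *Dtymk* (−0.34, 0.609) and *Hprt* (0.32, 0.823).

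**Figure D5:**
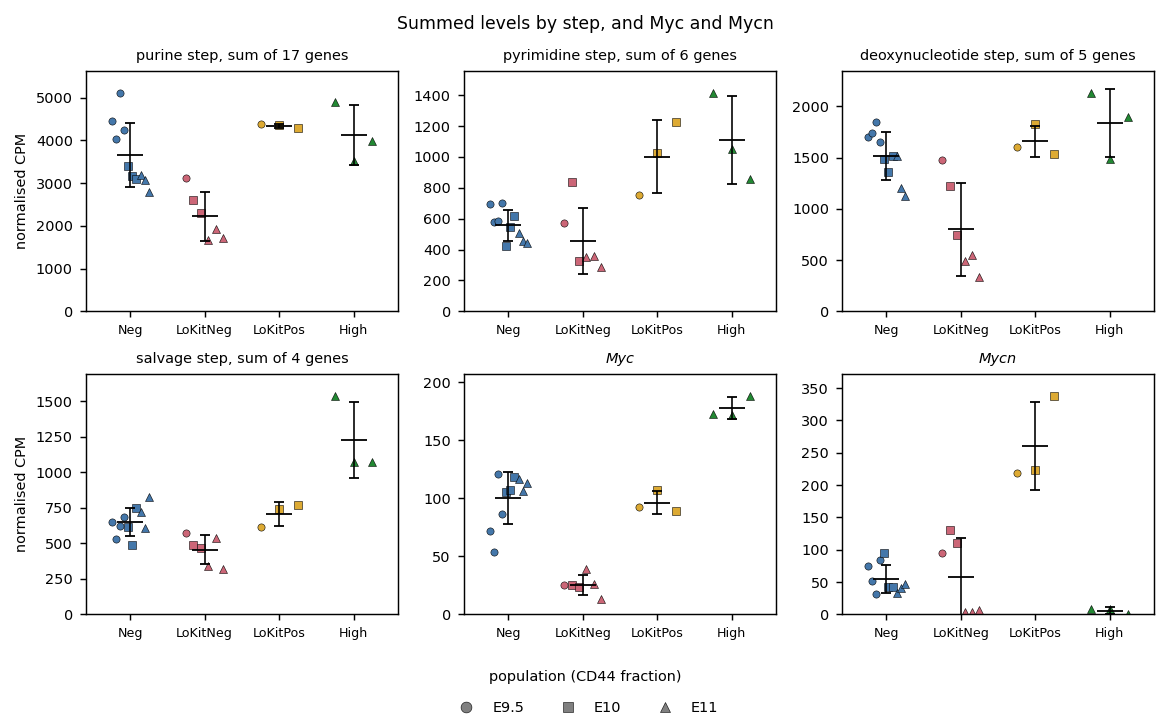
Summed normalised CPM of the purine, pyrimidine, deoxynucleotide and salvage genes, and the normalised CPM of *Myc* and *Mycn*, by population, 1 point per library with its shape giving the embryonic day and a bar for the mean ± SD. *Myc* is low in all 6 CD44LoKitNeg libraries (13.01 to 39.1), whereas *Mycn* is low in the E11 libraries of CD44LoKitNeg (3.76 to 6.82) and in CD44High.

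Genes around the pathway were counted on lists of their own. Of 53 other genes of nucleotide metabolism 40 were tested between CD44LoKitNeg and CD44Neg, and 9 fell, none rose (22.5% of those tested, beside 5.23% of all genes lower). They included *Slc29a1*, a nucleoside transporter (−2.21, adjusted p = 2.62e-05), *Dctd*, dCMP deaminase (−1.61, adjusted p = 0.000368), *Nt5c*, a nucleotidase (−1.50, adjusted p = 3.69e-05), and *Upp1*, uridine phosphorylase (−1.04, adjusted p = 0.000497), with *Gmpr*, *Nme4*, *Dctpp1* and *Itpa*. Of 24 genes of one-carbon supply, which feeds purine and thymidylate synthesis, *Mthfd1* (−1.86, adjusted p = 0.00109) and *Shmt2* (−1.19, adjusted p = 0.00369) fell, a share of 8.33%, near that of all genes. From CD44LoKitNeg to CD44LoKitPos 2 of 47 other genes of nucleotide metabolism rose (*Dctd* and *Dctpp1*), 4.26% beside 2.55% of all genes, so that the count is near the background. Of 25 one-carbon genes 5 rose (20%), among them *Phgdh*, the first enzyme of serine synthesis (3.94, adjusted p = 0.00168), *Mthfd1* (2.52, adjusted p = 0.000801), *Shmt1* (2.22, adjusted p = 0.00477) and *Shmt2* (1.52, adjusted p = 0.00531). The median fold changes of these lists were −0.41 and −0.36 in the first comparison and 0.526 and 1.08 in the other.

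Of 32 proliferation genes 25 did not pass the threshold between CD44LoKitNeg and CD44Neg and 29 did not between CD44LoKitPos and CD44LoKitNeg. The other 7 (21.9%, beside 5.23% of all genes) fell in CD44LoKitNeg (*Mcm2*, *Mcm3*, *Mcm5*, *Mcm7*, *Cdc6*, *Gins2* and *Fen1*, all of DNA replication; median of the 32 −0.883) and 3 (9.38%, beside 2.55%) rose in CD44LoKitPos (*Mcm3*, *Mcm7* and *Fen1*; median of the 32 1.05). Their summed level was 4424 to 8032 in CD44Neg, 5818 to 7904 in CD44LoKitPos and 8083 to 8916 in CD44High. In CD44LoKitNeg it was 1377 to 2221 at E11, 3631 and 4879 at E10 and 7776 at E9.5. *Mki67*, a marker of cycling cells, was at 19.5, 96.4 and 68.9 in the E11 libraries of CD44LoKitNeg and at 295, 270.2 and 77.1 in the earlier ones, and passed the threshold in no population comparison (−0.48, adjusted p = 0.448, against CD44Neg). The part of the share of cycling cells in the lower nucleotide synthesis transcripts was not tested.

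*Myc* itself was at 53.9 to 121 in CD44Neg, 13.01 to 39.1 in CD44LoKitNeg, 107, 89.2 and 92.9 in CD44LoKitPos and 172, 172 and 189 in CD44High, with all CD44LoKitNeg libraries below all others. *Myc* fell in CD44LoKitNeg by 1.97 ± 0.24 (SE, adjusted p = 1.71e-05), the single call among 11 genes of the MYC network, and was higher by 1.93 ± 0.27 in CD44LoKitPos (SE, adjusted p = 0.000136) and by 2.81 ± 0.27 in CD44High (SE, adjusted p = 5.17e-08). *Mycn* was at 32.02 to 95.3 in CD44Neg, 3.76, 4.53 and 6.82 in the E11 libraries of CD44LoKitNeg, 95.0, 130.2 and 111 in its earlier ones, 223, 338 and 219 in CD44LoKitPos and 8.51, 9.05 and 0 in CD44High. Its fall from CD44LoKitPos to CD44High was −5.46 ± 1.19 (SE, adjusted p = 0.00484). The 13 genes of the E2F and RB families had fold changes of −1.74 to 1.23 (median 0.31) between CD44LoKitNeg and CD44Neg.

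Levels of different genes can be set side by side only per length of transcript. Per kilobase of exon, and as means within a stage, *Nme2* (387 to 450 normalised CPM per kilobase) and *Nme1* (191 to 361) were the highest of the 32 in CD44Neg at each stage, and *Adssl1* (0 to 0.854) the lowest. The gene in the next place was *Rrm2* at E9.5 (222), *Paics* at E10 (168) and *Aprt* at E11 (185). In CD44LoKitNeg *Nme2* (290 to 298) and *Paics* (160 to 214) led at each stage, followed by *Hprt* at E9.5 (187) and E10 (151) and *Aprt* at E11 (127). In CD44LoKitPos *Nme2* (364 and 356) came before *Nme1* at E9.5 (294) and before *Paics* at E10 (302), and in CD44High *Hprt* (592) stood first, ahead of *Nme2* (318) and *Paics* (274). Differences between neighbours in these orders were not tested. Lengths are those of all annotated exons of a gene together, which can exceed that of the transcript present.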

How the data were processed

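Full-length cDNA of 25 sorted cells per library was made with SMART-Seq2 and tagged with Nextera adapters. The authors clipped reads with the FASTX tools, aligned them with RNA STAR and counted reads per gene with htseq-count on a Galaxy server. The submitters' processing notes name mm10, FastQC and HTSeq, and the annotation and strand setting are not given in the sources used here. The deposited table holds raw counts for 24454 gene symbols in 22 libraries, with no normalisation, and 0 of its columns were left without a library.

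Genes were tested on these deposited counts with edgeR 4.0.16 (R 4.3.3; TMM scaling, filterByExpr with a minimum count of 10 and a minimum total count of 15, quasi-likelihood test, Benjamini-Hochberg adjustment over all genes tested, adjusted p under 0.01), and with the Wald test of DESeq2 1.42.0 as an alternative. CD44LoKitNeg was compared with CD44Neg in a fit of those 16 libraries, stages in the 10 CD44Neg libraries, the change of the population difference between E10 and E11 in the 11 libraries of those groups, and all other pairs of populations in 1 fit of the 22 libraries. Standard errors were derived from the fold change and its F statistic. Printed levels are CPM (counts scaled to library size) from 1 TMM scaling of all libraries. Ratios had 0.5 added to each count. The scripts were tested on simulated data. Figures were drawn with Python 3.11.15 and matplotlib 3.10.9.

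The genes and all lists were chosen with earlier results of these data known. Each of the 32 genes was accounted for, every one of them called was named, with full statistics for the 10 smallest adjusted p-values where more than 10 were called, and the gene with the smallest adjusted p of each step was named whether called or not; *Cd44*, *Kit*, *Myc*, *Mycn*, *Mki67* and *Rn45s* were always named. Some genes on the lists around the pathway, which are included in the counts and medians of those lists, are not reported here. Pairs of replicates differed by more than sampling noise (chi-square over degrees of freedom of 17.6 to 90.2 over 20 pairs). The alternatives tried were other size factors, no filter, the Wald test, a threshold of 0.05, stage as a covariate or matched, each library left out in turn, and *Rn45s* left out. Other data of the study were not analysed here.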

Additional observations from a re-analysis of the deposited data

Results flagged for a closer look

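Single libraries stood far from the other libraries of their population in 5 of 76 sets of values checked with Dixon's test, where chance gives about 1 in 20. *Pfas* was at 350 normalised CPM in CD44Neg replicate 6 (E9.5), beside 88.6 to 175 in the other 9 libraries. *Cmpk1* was at 276 in CD44Neg replicate 10 (E10), beside 68.2 to 164. *Gmps* was at 365 in CD44LoKitNeg replicate 14, the E9.5 library, beside 146 to 172 in the other 5. *Ctps* was at 139 in CD44LoKitNeg replicate 15 (E10), beside 32.2 to 67.6. *Aprt* was at 288 in CD44LoKitNeg replicate 12 (E11), beside 139 to 177.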

How the results depend on the processing

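The number of genes called changed with the settings given here, and the cause was not tested. Of 32 genes, those called between CD44LoKitNeg and CD44Neg (8) numbered 13 with the Wald test (which called 15.8% of all genes), 15 at a threshold of 0.05 (20.1%), 13 with stage as a covariate (10.7%), 4 at E11 alone, 0 at E10 alone, 5 without *Rn45s* (an alternative chosen after seeing the data) and 4 to 11 with 1 library left out. Between CD44LoKitPos and CD44LoKitNeg (7) the count was 18 at 0.05 (12.5%), 2 within shared stages and 3 to 11 with 1 library left out. Between CD44LoKitPos and CD44Neg (1) it was 2 with the Wald test (6.4%), 3 at 0.05 (7.27%), 2 within shared stages and 0 to 1 with 1 library left out, and between CD44High and CD44LoKitPos (0) it was 1 with the Wald test (5.53%) and 1 at 0.05 (6.05%); these share no stage, so the contrast within shared stages was not run. Between CD44High and CD44LoKitNeg (13) it was 21 at 0.05 (26.8%), 24 with stage as a covariate (19.5%), 21 within shared stages (16.2%) and 3 to 17 with 1 library left out, and between CD44High and CD44Neg (5) it was 8 (22.5%), 13 (14.6%), 6 (9.42%) and 3 to 6. Between E9.5 and E10 (0) it was 1 with no filter (which called 116 of all genes in place of 2), 1 with the Wald test (2.05%) and 1 at 0.05 (0.933%), between E9.5 and E11 (1) it was 5 (279 of all genes in place of 77), 6 (3.81%) and 6 (3.13%) and 0 to 1 with 1 library left out, and for the interaction (0) it was 2 with no filter (190 of all genes in place of 1). The number of isoenzyme ratios past 0.05 (3) was 2 to 3 with 1 library left out. Signs were followed only for the ratios and for genes called or with the smallest adjusted p of their step. They turned for *Cad* (0.0787) and *Dtymk* (0.206) between CD44High and CD44LoKitPos with stage as a covariate, for the *Adss* to *Adssl1* ratio with 5 added to each count (0.12) or 1 library left out (−0.919 to 0.519), and for the *Impdh1* to *Impdh2* ratio with 1 library left out (−0.0167 to 0.792). Between CD44High and CD44LoKitPos, 14 of all 32 genes were above 0, and 26 with stage as a covariate. No paired analysis was possible because the populations and stages share no replicate numbers. Levels under that of 3 counts could not be measured, as for *Adssl1*, with no count in 8 of 10 CD44Neg libraries.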
